A study of Mus musculus with 2 samples.

Results

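The Polycomb complex genes are 34 listed genes that encode subunits of Polycomb repressive complex 2 (PRC2, 11 genes), Polycomb repressive complex 1 (PRC1, 21 genes) and the deubiquitinase PR-DUB (2 genes). A member was measured where the array annotation gave a probe set its symbol and no other, and where a gene had several such probe sets the brightest by its mean represented it. By this rule 31 of the 34 were measured, among 22180 genes in all. PRC2 had all 11 of its members, PRC1 had 18 of 21 and PR-DUB had both.

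The samples were 1 mouse embryonic stem cell line carrying EWS-OCT4A-GFP and 1 control line carrying GFP, both stable derivatives of what the labels call the Niwa line. EWS-OCT4A joins the EWS protein to OCT4A, the pluripotency isoform of OCT4. Both lines grew with LIF, and doxycycline was given to both at 1 µg/ml, which lowers their endogenous OCT-4, so the GFP control is also a cell with lowered OCT-4. The question for these genes is how their transcripts compare between the lines in that state. Each line has 1 column of RMA values on the log2 scale, no difference has a replicate check, no test of the lines was possible, and the labels do not say whether a line is 1 clone.

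PRC2 and PRC1 keep developmental genes silent. PRC2 methylates lysine 27 of histone H3 through EZH1 or EZH2, held together by EED and SUZ12. PRC1 ubiquitinates a lysine of histone H2A through RING1 or RNF2 paired with a PCGF protein. Canonical PRC1 adds a CBX subunit, which binds the PRC2 mark, and a PHC subunit, whereas variant PRC1 carries RYBP or YAF2 in place of CBX. BAP1 with an ASXL partner, the core of PR-DUB, removes the H2A ubiquitin. In embryonic stem cells these complexes occupy the promoters of lineage regulators.

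The samples differed far beyond these genes. Of 6 embryonic stem cell markers, 5 were at least 2-fold higher in the EWS-OCT4A-GFP sample, with a mean level of 9.03 in EWS-OCT4A-GFP cells and 5.58 in GFP cells; Pou5f1 itself read 5.37 and 5.24 in that order. The 6 markers ranged from 5.37 (Pou5f1) to 10.999 (Tdgf1) in EWS-OCT4A-GFP cells and from 4.07 (Esrrb) to 7.77 (Zfp42) in GFP cells, where Sox2 read 5.50 and Nanog 5.94. All 7 trophoblast markers read lower with the fusion, 6 of them by at least 2-fold, with a mean of 5.08 in EWS-OCT4A-GFP cells and 8.34 in GFP cells. Of 5 primitive endoderm markers, 3 were at least 2-fold lower, and of 4 fibroblast markers 1 was (Postn). All 10 measured cell cycle genes were higher, 7 of them by at least 2-fold, with a mean of 9.19 in EWS-OCT4A-GFP cells and 8.05 in GFP cells. These counts need only the higher value to reach 4.10, the median of all values. Esrrb lay below it in GFP cells, and Hand1, Gata6 and Postn in EWS-OCT4A-GFP cells, so these were counted only through their higher value. Of all genes reaching 4.10, 9.31% were at least 2-fold higher and 11.9% lower. These marker lists and the Polycomb genes were compared between the same samples, and the part of the marker differences in the Polycomb differences was not tested. In such bulk samples, fewer cells of a type and less RNA per cell cannot be told apart.

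A gene was counted as 2-fold apart when its log2 values differed by at least 1 and the higher of them reached 4.10, the median of all values and the floor used here. Of the 31 measured members, 30 were at or above the floor. In the EWS-OCT4A-GFP sample 6 members were at least 2-fold higher, which is 20.0% of those 30, against 9.31% of all 13516 genes at or above the floor. A further 4 were at least 2-fold lower, 13.3% of the 30, against 11.9% of all genes. Polycomb genes are mostly well expressed, and with the floor raised to 6 the shares were 20.0% of 25 members against 11.9% of 7339 genes for higher and 16.0% against 17.0% for lower. The higher members were Phc1, Pcgf2, Eed, Scmh1, Asxl1 and Ezh2, and the lower ones Pcgf5, Rbbp7, Yaf2 and Pcgf3. All 10 had both values at or above the floor. The median absolute difference was 0.68 over the 30 members and 0.46 over all genes at or above the floor.

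**Figure D1:**
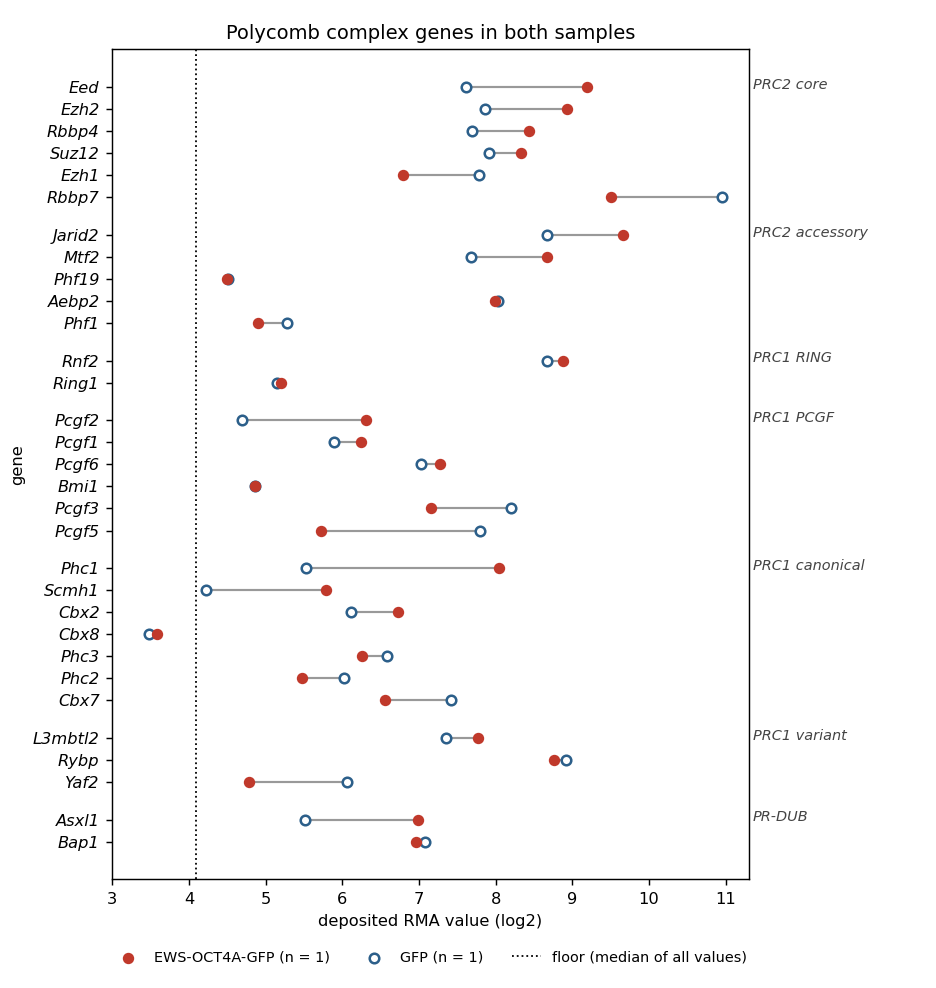
Deposited RMA values on the log2 scale (x axis) of the 31 measured Polycomb complex genes (y axis), grouped by role. Filled points are the EWS-OCT4A-GFP sample, open points the GFP sample (n = 1 each), and the dotted line is the floor of 4.10; within PRC2 core, Eed, Ezh2, Rbbp4 and Suz12 lie to the right of their GFP points, whereas Ezh1 and Rbbp7 lie to the left.

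Within the PRC2 core, 4 of 6 genes read higher with the fusion, as did 11008 of all 22180 genes, so this count by sign says little. The catalytic paralogs differed in opposite directions. Eed, the subunit that binds trimethylated lysine 27 and stimulates the enzyme, read 9.19 in EWS-OCT4A-GFP cells and 7.61 in GFP cells, a log2 difference of 1.58 or 2.98-fold. Its absolute difference was larger than that of 90.6% of genes at or above the floor. Ezh2, the main methyltransferase of dividing cells, read 8.93 in EWS-OCT4A-GFP cells and 7.85 in GFP cells, a difference of 1.08 or 2.11-fold, which loess centring reduced to 0.97, just under the 2-fold mark. Its paralog Ezh1, the form associated with resting cells, read 6.80 in EWS-OCT4A-GFP cells and 7.78 in GFP cells. That difference of -0.99 fell just short of 2-fold and passed it after median centring (-1.02) and loess centring (-1.08). The differences of Ezh2 and Ezh1 thus lay 2.07 log2 units apart.

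The scaffold subunit gene Suz12 read 8.33 in EWS-OCT4A-GFP cells and 7.91 in GFP cells, a difference of 0.42 that was also the median of the 11 PRC2 genes. All genes at or above the floor had a median of 0.03. The PRC2 median depends on Rbbp4: it was 0.24 with the mean of the probe sets of a gene and -0.012 with the probe set of the lowest mean, so it has no settled direction. Rbbp4 and Rbbp7 encode histone-binding proteins that PRC2 shares with other chromatin complexes, so neither is specific to PRC2. Rbbp7 read 9.51 in EWS-OCT4A-GFP cells and 10.9 in GFP cells, a difference of -1.44, and was the only PRC2 gene at least 2-fold lower. Rbbp4 read 8.43 in EWS-OCT4A-GFP cells and 7.69 in GFP cells, a difference of 0.75. A second Rbbp4 probe set, below the floor in both samples, differed by -0.28, so the direction of Rbbp4 depends on the probe set.

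The PRC2 accessory genes fell into a pair that read higher and 3 that differed little. Jarid2, a cofactor that helps recruit PRC2 and defines the PRC2.2 form, read 9.67 in EWS-OCT4A-GFP cells and 8.67 in GFP cells, a difference of 1.00 that rounds up to the 2-fold mark from just below it. Mtf2, the Polycomb-like protein that brings PRC2.1 to CpG-rich DNA, read 8.66 in EWS-OCT4A-GFP cells and 7.67 in GFP cells, a difference of 0.99. Both counted as 2-fold higher after a further quantile normalization (1.02 and 1.03). The other PRC2.2 subunit gene, Aebp2, differed by -0.04. The Mtf2 paralogs Phf1 and Phf19 differed by -0.38 and -0.01, and both read below 5.30 in both samples.

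PRC1 as a whole was centred near 0, with a median difference of 0.08 over its 18 measured genes, but its members spread from -2.08 to 2.52. Of the 17 that reached the floor, 3 were 2-fold or more higher (17.6%, against 9.31% of all genes) and 3 were lower by as much (17.6%, against 11.9%). At these numbers 1 gene moves either share by several percentage points. The catalytic genes differed little. Rnf2, the main E3 ligase gene of embryonic stem cells, read 8.87 in EWS-OCT4A-GFP cells and 8.67 in GFP cells, a difference of 0.20. Its paralog Ring1 read 5.21 in EWS-OCT4A-GFP cells and 5.15 in GFP cells, a difference of 0.06 that turned to -0.01 under loess centring.

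The PCGF genes, which decide the kind of PRC1 that RING1 or RNF2 joins, differed in opposite directions. Pcgf2 (MEL18), of canonical PRC1, read 6.31 in EWS-OCT4A-GFP cells and 4.69 in GFP cells, a difference of 1.62 or 3.08-fold. Pcgf5 read 5.72 in EWS-OCT4A-GFP cells and 7.79 in GFP cells, a difference of -2.08, which made it 4.23-fold lower. Pcgf3, which forms variant complexes of the same design as Pcgf5, read 7.15 in EWS-OCT4A-GFP cells and 8.20 in GFP cells, a difference of -1.05. A second Pcgf3 probe set read 4.19 and 4.50 in that order, and with the mean of both probe sets the difference of -0.68 no longer reached 2-fold.

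Pcgf1, of the variant complex PRC1.1, differed by 0.36, and Pcgf6, of the E2F6-containing PRC1.6, by 0.25. Bmi1, the closest paralog of Pcgf2, read 4.86 in both samples, equal to the last decimal given. The 6 PCGF differences spanned 3.70 log2 units, against 2.07 for the EZH pair, 3.07 for the 3 PHC genes and 0.14 for the RING pair; these groups have different numbers of genes.

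**Figure D2:**
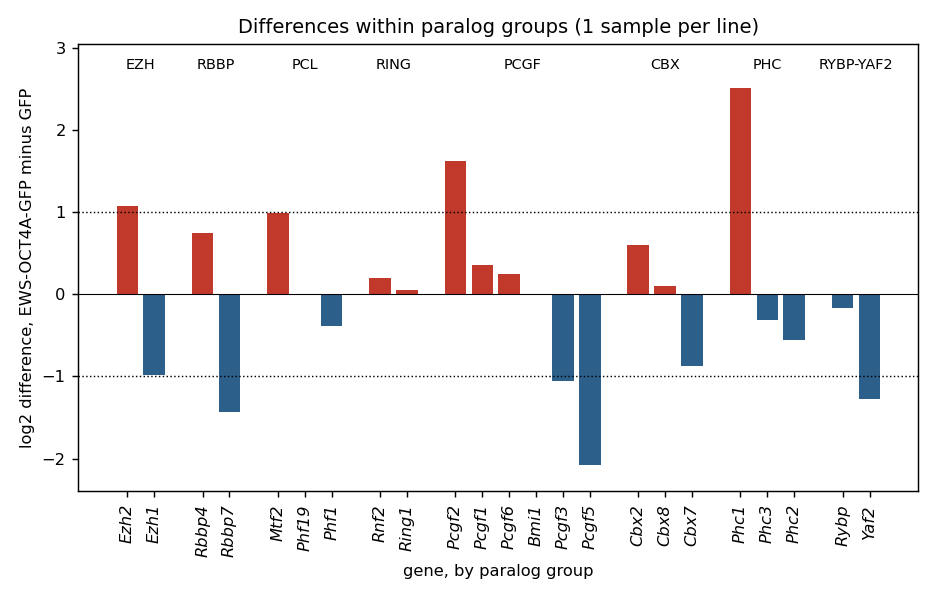
Log2 difference between the EWS-OCT4A-GFP and GFP samples (y axis) for genes of 8 paralog groups (x axis), with 1 sample per line and no error estimate. Bars above 0 (red) are higher in EWS-OCT4A-GFP cells, bars below 0 (blue) are lower, and dotted lines mark 2-fold; Ezh2, Pcgf2 and Phc1 exceed the upper line while Rbbp7, Pcgf3, Pcgf5 and Yaf2 pass the lower one.

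Among the canonical PRC1 genes, Phc1 had the largest difference of all 31 members. Phc1 encodes a polyhomeotic protein whose SAM domain polymerises and clusters PRC1. It read 8.04 in EWS-OCT4A-GFP cells and 5.52 in GFP cells, a difference of 2.52 or 5.72-fold, larger in absolute size than that of 97.2% of genes at or above the floor. Its paralogs read lower with the fusion, Phc2 by a difference of -0.55 and Phc3 by -0.31. Scmh1, another SAM-domain partner of the PHC proteins, read 5.78 in EWS-OCT4A-GFP cells and 4.22 in GFP cells. Its difference was 1.56 or 2.95-fold, but the GFP value lay just above the floor, so the size is uncertain.

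The CBX genes showed no 2-fold difference. Cbx7, known as the main CBX subunit of embryonic stem cells, read 6.55 in EWS-OCT4A-GFP cells and 7.42 in GFP cells, a difference of -0.87. Cbx2, known to gain in differentiating cells, read 6.72 in EWS-OCT4A-GFP cells and 6.12 in GFP cells, a difference of 0.60. Cbx8, its neighbour on the chromosome with no protein-coding gene between them, read 3.59 and 3.48 in that order, below the floor in both samples.

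Of the variant PRC1 genes, Rybp read 8.76 in EWS-OCT4A-GFP cells and 8.92 in GFP cells, a difference of -0.17. Its paralog Yaf2 read 4.79 in EWS-OCT4A-GFP cells and 6.06 in GFP cells, a difference of -1.27 or 2.41-fold lower. L3mbtl2, an MBT-domain subunit of PRC1.6, differed by 0.42. Kdm2b, Bcor and Cbx6 had no probe set with their symbol alone and were not counted. Probe sets that list them with other symbols read 5.61 in EWS-OCT4A-GFP cells and 6.21 in GFP cells for Kdm2b with Gm2479, and 5.30 and 4.76 in that order for Cbx6 with Npcd and Nptxr. The probe set listing Bcor, the PRC1.1 scaffold gene, with 2900008C10Rik read 5.65 in EWS-OCT4A-GFP cells and 8.71 in GFP cells, a difference of -3.06. RefSeq gives 2900008C10Rik as a synonym of Bcor, so this value, outside the rule, has the largest absolute difference of the probe sets that name a member.

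In PR-DUB, Asxl1, the cofactor that activates BAP1, read 6.99 in EWS-OCT4A-GFP cells and 5.51 in GFP cells, a difference of 1.48 or 2.79-fold. A probe set shared with 2500004C02Rik differed by 0.55 in the same direction. Bap1, the catalytic subunit, read 6.95 in EWS-OCT4A-GFP cells and 7.08 in GFP cells, a difference of -0.12.

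The promoters of Phc1 and Eed, which read higher with the fusion, and of Ezh1 and Pcgf5, which read lower, are shown because these genes carry the opposite differences. Each line gives the 250 bases before the start, 5′ to 3′ on the strand of the gene, from RefSeq on GRCm38.p6, and capitals mark CpG dinucleotides. Where a gene has several windows, the nearest to its annotated start is shown. Those of Ezh2 and Pcgf2 are not shown because their windows belong to starts 240 and 2786 bases inside the annotated genes. The windows shown lie on the minus strand except that of Pcgf5, which is on the plus strand.
Phc1 (chr6:122340228-122340477): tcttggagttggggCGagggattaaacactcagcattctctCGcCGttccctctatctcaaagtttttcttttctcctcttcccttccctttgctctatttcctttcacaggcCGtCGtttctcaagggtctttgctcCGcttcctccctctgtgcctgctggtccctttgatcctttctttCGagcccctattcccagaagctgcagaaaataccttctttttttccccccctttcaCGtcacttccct
Eed (chr7:89980977-89981226): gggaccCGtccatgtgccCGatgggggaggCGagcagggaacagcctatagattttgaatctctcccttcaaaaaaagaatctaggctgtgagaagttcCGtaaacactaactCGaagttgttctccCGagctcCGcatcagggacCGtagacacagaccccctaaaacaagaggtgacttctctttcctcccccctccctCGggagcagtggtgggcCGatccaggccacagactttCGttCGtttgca
Ezh1 (chr11:101226464-101226713): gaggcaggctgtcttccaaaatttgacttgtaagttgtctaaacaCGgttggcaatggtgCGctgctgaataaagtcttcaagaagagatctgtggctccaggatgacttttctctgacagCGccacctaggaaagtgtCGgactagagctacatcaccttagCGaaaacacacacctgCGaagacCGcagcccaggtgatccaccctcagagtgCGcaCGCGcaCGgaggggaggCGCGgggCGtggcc
Pcgf5 (chr19:36348079-36348328): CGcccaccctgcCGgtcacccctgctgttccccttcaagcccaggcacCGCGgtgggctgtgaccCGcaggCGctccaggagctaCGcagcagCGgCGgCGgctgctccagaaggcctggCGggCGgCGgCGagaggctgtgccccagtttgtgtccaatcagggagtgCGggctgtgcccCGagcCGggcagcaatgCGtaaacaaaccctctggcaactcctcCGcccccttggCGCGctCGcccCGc

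The Phc1 window held 8 CpG dinucleotides, that of Eed 12, that of Ezh1 14 and that of Pcgf5 23. Windows were at hand for 30 of the 34 genes, 43 windows in all since some genes have several starts. The median was 20 CpG in these 43 windows and 6 in all 32851 windows of the table, whose upper quartile was 16. The Phc1, Eed and Ezh1 windows thus held fewer CpG dinucleotides than the median Polycomb window. That of Scmh1, which read higher with the fusion, held 45, but belongs to a start 198 bases inside the annotated gene. With 1 window per gene, the median was 11.5 CpG for 6 members at least 2-fold higher (range 5 to 45). It was 23 for 3 lower members (16 to 34) and 22.5 for 18 within 2-fold (1 to 43). In the higher group the windows of Ezh2, Pcgf2 and Scmh1 belong to starts 240, 2786 and 198 bases from the annotated ones. Within 2-fold, that of Cbx7 lies 38497 bases away, and some others also lie off the annotated start. These medians therefore mix unlike windows, and a link between CpG number and difference was not tested. The GC box GGGCGG, read on both strands like every motif here, was found in 67.4% of the Polycomb windows and 32.7% of all windows. CCAAT was found in 32.6% and 33.8%, and TATAAA in 2.33% and 12.4%, in the same order. The octamer ATGCAAAT, the core letters bound by OCT4, was found in 1 Polycomb window (Phc2), or 2.33%, and in 1.60% of all windows. GGAAGGAA, a short form of the repeat bound by EWS-FLI1, was in 0 Polycomb windows and 3.12% of all. These matches describe letters in the windows and locate no binding.

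Other genes of the same complexes, the enzymes that oppose PRC2 and a few further Polycomb genes formed 1 more list. Of 35 measured genes on this list 32 reached the floor. With the fusion 8 of them (25.0%) were 2-fold or more lower and 1 (3.12%) was higher by as much, against 11.9% and 9.31% of all genes, and the median was -0.33. The lower ones were unevenly spread by role. They were 1 of 3 PRC2-associated, 1 of 15 PRC1-associated and 1 of 6 PR-DUB-associated genes at or above the floor. The rest were all 3 demethylase genes and 2 of 5 further genes, so the share for the list does not describe the genes of the complexes. The higher one was Cbx3, an HP1 protein also found in PRC1.6, 2.15-fold higher. Cbx3 has 4 probe sets, so its call rests on the brightest and is not shown for the others. Sfmbt2, an imprinted gene for an MBT-domain Polycomb protein needed in trophoblast, read 7.61 in EWS-OCT4A-GFP cells and 10.7 in GFP cells, a difference of -3.06 or 8.37-fold lower. L3mbtl3, another MBT-domain gene, differed by -1.81, and Lcor, whose locus also encodes the PRC2 partner PALI1, by -1.41.

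Auts2, a partner of PCGF3 and PCGF5 in variant PRC1, read 4.61 in EWS-OCT4A-GFP cells and 7.32 in GFP cells, a difference of -2.71 or 6.54-fold lower. Its relatives Fbrs and Fbrsl1, named here after their values were seen, differed by -0.88 and -0.74. All 3 genes of the AUTS2 family thus read lower, but only Auts2 by at least 2-fold. On this list 24 of 35 genes read lower, and of all 22180 genes 10223 did. Casein kinase 2, in the PCGF3 and PCGF5 complexes and in many others, is represented by Csnk2a1, which differed by 0.35.

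All 3 genes of the lysine 27 demethylase family were 2-fold or more lower with the fusion by their brightest probe sets. Of all genes at or above the floor, 11.9% were lower by as much. Kdm6b has 2 probe sets, so its call rests on the brightest and is not shown for the other. Kdm6b (JMJD3) read 6.20 in EWS-OCT4A-GFP cells and 7.95 in GFP cells, a difference of -1.75. Kdm6a (UTX), on the X chromosome, read 7.74 in EWS-OCT4A-GFP cells and 8.99 in GFP cells, a difference of -1.25. Uty, its Y-linked relative with little demethylase activity, read 5.26 in EWS-OCT4A-GFP cells and 7.28 in GFP cells, a difference of -2.01.

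**Figure D3:**
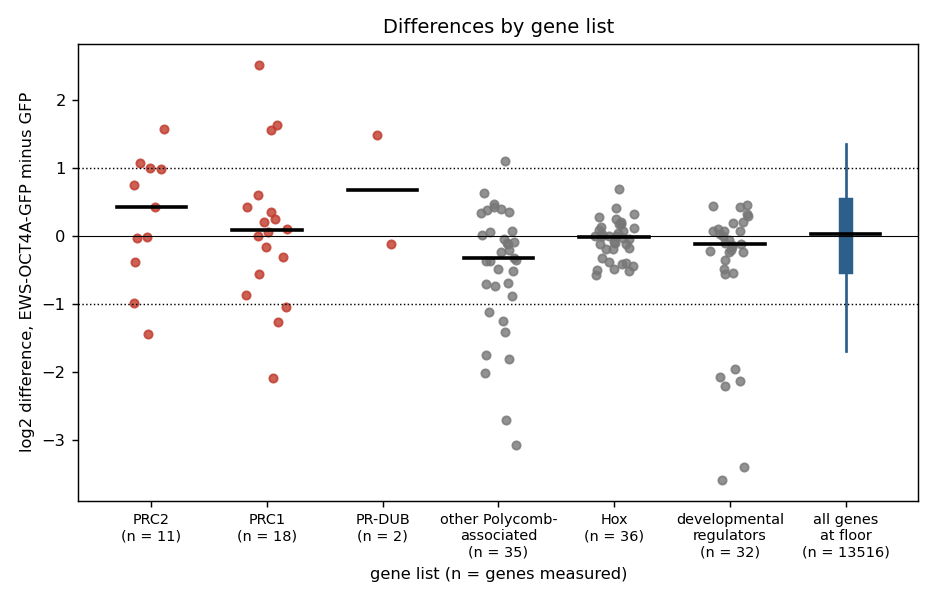
Log2 difference between the EWS-OCT4A-GFP and GFP samples (y axis) for each measured gene of 6 lists (x axis), with black lines at list medians and dotted lines at 2-fold. For all 13516 genes at or above the floor the thick bar spans the quartiles and the thin line the middle 90%; PRC2 has a median of 0.42 (0.24 and -0.012 under the other probe set rules), PRC1 of 0.08 and the other Polycomb-associated genes of -0.33.

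Known Polycomb targets mostly read low in both samples, with medians of 3.40 in EWS-OCT4A-GFP cells and 3.53 in GFP cells for Hox genes and of 4.04 and 4.31 in that order for developmental regulators. Of 36 measured Hox genes, 0 were 2-fold apart, the median difference was -0.02, and the highest value was 5.12, in the GFP sample. Only 10 Hox genes reached the floor, so most of them give no usable difference. Hoxb9 (-0.51), Hoxa4 (-0.44), Hoxa7 (0.32), Hoxd8 (0.24), Hoxc13 (0.21) and Hoxb5 (-0.18) differed most among those 10. Of 32 measured developmental regulators known to carry the PRC2 mark in embryonic stem cells, 6 were 2-fold or more lower and 0 higher, with a median of -0.12; of all genes at or above the floor 11.9% were lower and 9.31% higher by as much. Of those 6 regulators, 3 (Gata6, Hand1 and Msx2) lay below the floor in EWS-OCT4A-GFP cells and were counted only through their GFP values, so the count is a description and no share is drawn from it.

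All 6 regulators read above the floor in GFP cells, which the counting rule requires of any gene counted as lower. Gata3, a trophoblast transcription factor gene, read 4.43 in EWS-OCT4A-GFP cells and 8.01 in GFP cells, a difference of -3.58. Irx3, a homeobox gene, read 4.72 in EWS-OCT4A-GFP cells and 8.11 in GFP cells, a difference of -3.39. Gata3 and Irx3 have 2 probe sets each, so their values rest on the brightest. Eomes read 4.21 in EWS-OCT4A-GFP cells and 6.16 in GFP cells, a difference of -1.95. Its EWS-OCT4A-GFP value lay just above the floor, so the size is uncertain. Gata6 read 3.79 in EWS-OCT4A-GFP cells and 5.995 in GFP cells, Hand1 3.79 and 5.85, and Msx2 3.38 and 5.52, in that order. With the EWS-OCT4A-GFP value of these 3 set to the floor, Gata6 was lower by at least 1.90 log2 units, Hand1 by at least 1.76 and Msx2 by at least 1.42. Gata3, Hand1 and Eomes act in trophoblast, and Gata6 in primitive endoderm. Gata3 and Hand1 were already counted among the trophoblast markers and Gata6 among the primitive endoderm markers, so these counts share genes. Cdkn2a, the classic target that Polycomb restrains in proliferating cells, differed by 0.19, and its neighbour Cdkn2b by 0.44.

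**Figure D4:**
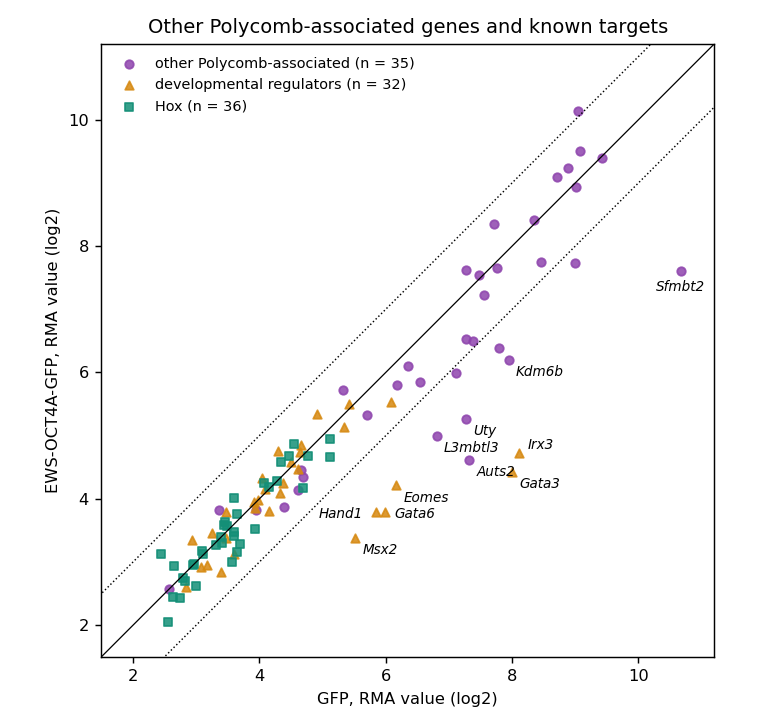
RMA values on the log2 scale in the EWS-OCT4A-GFP sample (y axis) against the GFP sample (x axis) for other Polycomb-associated genes, developmental regulators and Hox genes, 1 point per gene. The solid line marks equal values and dotted lines 2-fold; Hox genes stay between the dotted lines at 5.12 or less, whereas Sfmbt2, Auts2, Gata3 and Irx3 lie below them.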

How the data were processed

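Per the submitters' processing notes, the authors made the deposited log2 values with RMA in Affymetrix Expression Console 1.1. RMA corrects background, quantile-normalizes the arrays and summarises each probe set, so a shift shared by most transcripts would not show. The log base was taken from the range of the values (0.618 to 13.0). The series text mentions duplicates, but each line has 1 column, and no source used here says whether it is a mean. Signal over background is unknown, and the number of arrays limits the precision.

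Of 33793 probe sets, 23521 had 1 symbol; the 31 measured members matched RefSeq by gene ID. Differences are EWS-OCT4A-GFP minus GFP. No p-value is given. The floor of 4.10, the 2-fold size and the lists were applied with Python 3.11.15, numpy 2.4.6 and pandas 2.3.3. The code was run on simulated data with differences set beyond 2-fold, which checks the code and not the calls in these samples. Members and lists were chosen with earlier results of these data known; motifs and promoters were chosen with the values known. All members were named, and from each further list the 6 genes at or above the floor with the largest absolute difference. Other genes were named after their values were seen. Alternatives were other fold sizes, other floors, median centring, quantile normalization, loess (span 0.3, statsmodels 0.14.6) and other rules for several probe sets.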

Additional observations from a re-analysis of the deposited data

How the results depend on the processing

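No paired analysis was possible because each line has 1 sample, and no replicate could be left out. At 1.5-fold, 10 of the 30 members at or above the floor were higher and 6 lower. Of all 13516 genes at or above the floor, 2708 were higher and 2784 lower by as much. At 3-fold, 2 of the 30 members were higher and 1 lower, beside 464 and 786 of the 13516 genes. The median of PRC2 moved to 0.24 with the mean of the probe sets of a gene and to -0.012 with the probe set of the lowest mean. Rbbp4, whose second probe set lies below the floor, is the 1 PRC2 gene those rules change. The median of the other Polycomb-associated genes moved to -0.20 with the probe set of the lowest mean. The other 60 recomputed counts and medians stayed within 1.5 times or 0.1 on the log2 scale. Calls of members changed for Ezh1, Ezh2, Jarid2, Mtf2 and Pcgf3 only, among the normalizations and probe set rules run, and no member that was 2-fold apart changed sign. Only 2 members, Rbbp4 and Pcgf3, have more than 1 probe set of their own. The probe set rules could therefore change no other member, and their unchanged values are no check. Signal over background, which is unknown, limits statements on genes near the floor, such as Cbx8, Phf19 and most Hox genes.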

Other observations

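Bmi1 was equal in both samples, to the 3rd decimal of the deposited values. Equal values were found for 1631 of 33793 probe sets (4.83%), whereas only 19 probe sets differed by 0.001. Among genes, 949 had equal values, 168 of them among the 13516 at or above the floor (1.24%). The median level of the equal probe sets was 2.85. Hoxb1, Hoxc5, Hoxc6, Hoxc9 and Wnt1 were also equal. The cause of the equal values was not tested, so the difference of 0 for Bmi1 should not be read as a measured lack of change.

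A probe set shared by Rbbp4 and Sync read 5.14 in EWS-OCT4A-GFP cells and 6.78 in GFP cells, a difference of -1.65, opposite in direction to the probe set that stood for Rbbp4 (0.75). Pcgf2 and Epop, which encodes an elongin-binding partner of PRC2, lie on the same chromosome with 2 protein-coding genes between them. Epop read 7.62 in EWS-OCT4A-GFP cells and 7.28 in GFP cells, a difference of 0.34, against 1.62 for Pcgf2.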
